A study of Mus musculus with 8 samples.

Results

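The 10 genes described here, interleukins and other non-interferon cytokines with some of their receptors, were followed in sorted mouse beta cells in which 1 or both copies of Adar were floxed. Adar is the gene of an enzyme that turns adenosine into inosine in double-stranded RNA. The rows were taken by gene name from a table of 44343 genes, and all 10 names were found. Of these, 6 encode ligands that belong to the interleukins or the tumour necrosis factor family (Il15, Il12a, Il18, Il6, Tnf, Tnfsf13b), 1 encodes a growth factor for macrophages (Csf1), and 3 encode receptor chains (Il15ra, Il6ra, Il1r1). All mice carried MipCreER, a Cre recombinase that tamoxifen activates and an insulin promoter drives, and R26R-EYFP, which marks recombined cells with a yellow fluorescent protein. In the KO group both Adar alleles were floxed, and in the Het group 1 allele was floxed, so the controls also lose 1 copy of Adar in recombined cells. Tamoxifen was given at 1 month of age, in 2 doses of 8 mg each. Islets were taken 7 days after it, and their YFP-positive cells were sorted. Each group had 4 libraries. How many mice gave each library is not stated in the labels, so p-values measure the spread between these libraries, which may in part be technical.

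Cytokines are secreted or membrane-bound proteins by which cells steer inflammation. Interleukin-1 and tumour necrosis factor signal through NF-kappaB and interleukin-6 through STAT3. Beta cells are known to carry the interleukin-1 receptor and to respond to interleukin-1 with loss of function. Interleukin-15 is shown to T cells and natural killer cells on its own alpha chain, the product of Il15ra, and BAFF, the product of Tnfsf13b, keeps B cells alive. Several of these genes are induced by interferon or NF-kappaB in immune cells. The design text reports islet inflammation in mice that lose Adar in beta cells and asks for its molecular basis, so the comparison of KO with Het asks whether the beta cells themselves hold more cytokine RNA.

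None of the 10 genes was called different between KO and Het. The two-sided test was limma on log2(normalized count + 1) of the 21498 genes whose mean reached 10, and a call needed a Benjamini-Hochberg adjusted p under 0.05. In this fit the spread behind each standard error (SE) and p was pooled over genes of like level. The median total degrees of freedom were 128988, so a gene's own 8 libraries added little to it. Of the 10 genes, 9 passed that filter and Il6 did not. Of the 9, 0 were called and 0 had an unadjusted p under 0.05, while 0.944% of all tested genes were called (198 higher and 5 lower in KO) and 6.75% had an unadjusted p under 0.05. The adjusted p of the 9 ran from 0.920 to 0.991. With recovered reads, edgeR's quasi-likelihood test called 0 of 9 (0 at an unadjusted p under 0.05), where 0.708% of its genes were called and 6.66% had an unadjusted p under 0.05. DESeq2 also called 0, with 0 at an unadjusted p under 0.05, but it gave an adjusted p for only 5 of the 10 (1.27% of its genes were called, and 4.63% had an unadjusted p under 0.05). The two-sided exact permutation test, which takes each gene alone, gave p from 0.400 to 0.800, and with 70 arrangements it cannot fall under 0.0286. In all 10 genes the Het and KO values overlapped, and in 3.08% of tested genes they did not. With shares this small, 0 calls and 0 separate groups do not set the 10 genes apart from other genes. The median log2 fold change of the 9 genes was 0.16, beside 0.05 over all tested genes.

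Library size was 5.37 to 15.9 M reads, and the KO libraries were less alike than the Het libraries. For genes whose mean reached 200, called abundant genes here, the median level relative to the average library was 0.88 (log2) in KO 1 and 0.96 in KO 2, but −0.77 in KO 3 and −0.56 in KO 4. Receptors of smell and pheromones (olfactory and vomeronasal genes), which are proper to sensory neurons, ran the opposite way. They took 0.0451% of reads in KO 1, 0.0320% in KO 2, 0.296% in KO 3, 0.267% in KO 4 and 0.0786% to 0.222% in Het. The mitochondrial share of reads, a sign of RNA quality, was highest in KO 3 (17.4%) and ran from 6.90% to 10.4% among the other libraries. The Y-linked gene Ddx3y had 1.10 normalized counts in KO 3, no read in KO 4 (compatible with up to 3 reads) and 198 to 1285 in the other libraries. Xist, transcribed from the inactive X chromosome, had 19.2 in Het 1 and 2343 to 7207 in the others, so the sex of the cells was not balanced between libraries. Het 2 to 4, KO 1 and KO 2 held both RNAs at these levels, so each held cells of both sexes and thus of more than 1 mouse. KO 3 and KO 4 held Xist with next to no Ddx3y, and Het 1 the reverse. Adar was at 744 to 1187 in Het and 615 to 4030 in KO, and since the counts cover the whole gene and not only its floxed part, they do not check the labels. Ins2, an insulin gene, was at 389200 to 799940 in Het and 125890 to 835220 in KO. Because of these differences the results are also given with TMM factors (trimmed mean of M values), which shift the median over all tested genes by −0.22 (log2).

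Stretches around the motif are shown for the 3 genes whose promoter held 1 of the stricter motifs searched, since interferon and NF-kappaB act through such sites. RefSeq promoters (GRCm38.p6, 250 bases before to 50 after each start) were found for 9 of the 10 genes, with Il15 as the exception, and both strands were searched. An interferon-stimulated response element core, 2 copies of GAAA set 2 bases apart, occurred in 1 of the 9 genes (Tnfsf13b), in 3.76% of 14207 tested genes with a promoter in the table and in 3.44% of all 32851 promoters. Among genes called higher in KO, 38 of 131 held it, or 29.0%. The NF-kappaB pattern, GGGA and TTTCC with 1 base between them, occurred in 2 of the 9 genes (Csf1 and Il6), in 0.528% of the tested genes and in 0.411% of promoters. The gamma-activated site TTCNNNGAA (N is any base) occurred in 0 of the 9, in 8.83% of the tested genes and in 8.30% of promoters. A looser NF-kappaB pattern, GGG and CC with 5 bases between them, which includes the stricter pattern, was in 7 of the 9, in 65.9% of the tested genes and in 50.8% of promoters. Sequences are given 5′ to 3′ on the strand of the gene, with the motif in capitals. Isg15, an interferon-induced gene, is added as a contrast.
Csf1 (chr3:107760564-107760673, minus strand): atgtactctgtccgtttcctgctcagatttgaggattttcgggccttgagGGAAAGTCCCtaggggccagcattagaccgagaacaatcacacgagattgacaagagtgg
Il6 (chr5:30013020-30013113, plus strand): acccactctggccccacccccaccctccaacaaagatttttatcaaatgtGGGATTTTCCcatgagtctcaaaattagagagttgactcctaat
Tnfsf13b (chr8:10006607-10006632, plus strand): tacaaaaactGAAAGTGAAAtgcgga
Isg15 (chr4:156200825-156200946, minus strand): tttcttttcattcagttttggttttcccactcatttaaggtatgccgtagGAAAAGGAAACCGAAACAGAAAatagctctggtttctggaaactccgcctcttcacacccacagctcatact

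The site of Csf1 lies on the opposite strand of the gene. That of Tnfsf13b lies 16 bases before the second of its RefSeq starts, which is inside the gene as annotated (from 10006467), and Isg15 holds 3 overlapping cores. Isg15 went from 20.5, 26.3, 25.7 and 27.5 in Het 1 to 4 to 2181, 441, 342 and 488 in KO 1 to 4, a log2 fold change of 4.62 ± 0.43 (limma adjusted p = 5.25e-23). The Isg15 groups did not overlap, while those of Tnfsf13b, Csf1 and Il6 did. The motif matches are descriptions of the letters in these windows.

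**Figure D1:**
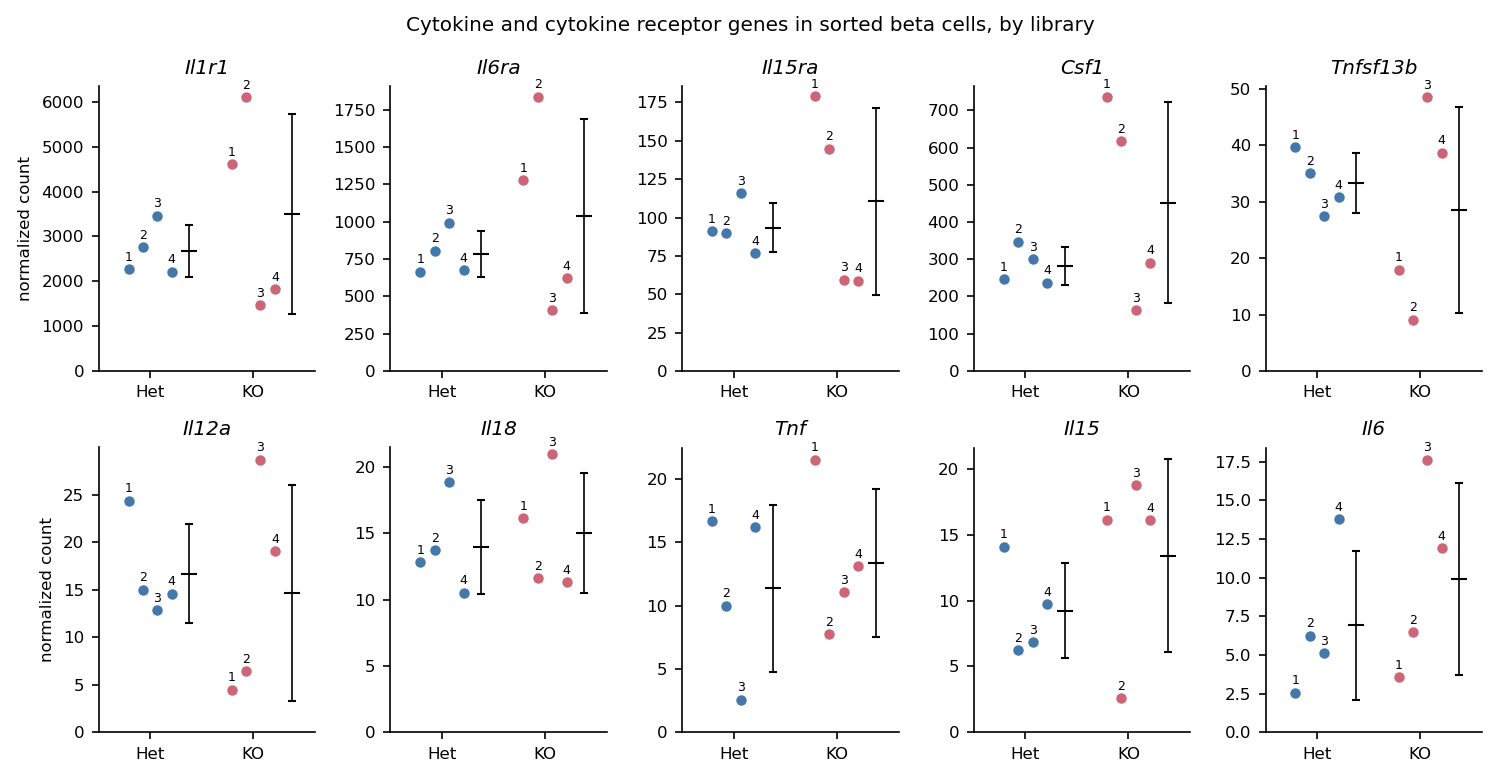
Normalized count (vertical axis, linear from 0) of each of the 10 genes in the 4 Het (blue) and 4 KO (red) libraries, with the library number above each point and the mean ± SD as a black bar. In every panel the Het and KO points overlap, and in Il1r1, Il6ra, Il15ra and Csf1 the points of KO 1 and KO 2 lie above all Het points. KO 3 and KO 4 lie below all Het points in Il1r1, Il6ra and Il15ra, while in Csf1 KO 3 does and KO 4 lies among them.

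Per kilobase of exon, the receptor gene Il1r1 had the highest level of the 10 genes. Il1r1 (ENSMUSG00000026072, protein-coding, mm10 chromosome 1, 40225080 to 40317257, plus strand) encodes the signalling receptor for interleukin-1. Its normalized count was 2266, 2765, 3463 and 2215 in Het 1 to 4 and 4605, 6112, 1460 and 1824 in KO 1 to 4. KO 2 and KO 1 were the highest libraries and KO 4 and KO 3 the lowest, with all Het libraries between them. The order of the 8 libraries was the same as the order of their median level of abundant genes. The means were 2677 ± 580 in Het and 3500 ± 2237 in KO (SD, n = 4 each), with a log2 fold change of 0.16 ± 0.62 (SE; limma adjusted p = 0.986). When only abundant genes were kept and TMM factors came from them, the Il1r1 values drew together, at 2693, 2765, 2962 and 3054 in Het and 2513, 3148, 2504 and 2700 in KO. The fold change was then 0.944 with a 95% interval of 0.763 to 1.17 (limma adjusted p = 0.713). In that setting 10.3% of genes were called.

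Il6ra (ENSMUSG00000027947, protein-coding, chromosome 3, 89864059 to 89913196, minus strand) encodes the chain that binds interleukin-6 before the shared chain Il6st signals. Its normalized count was 665, 806, 993 and 674 in Het 1 to 4 and 1279, 1837, 409 and 622 in KO 1 to 4. Here too KO 1 and KO 2 were above, and KO 3 and KO 4 below, every Het library. Its log2 fold change was 0.18 ± 0.56 (limma adjusted p = 0.981). With TMM factors from abundant genes the fold change was 0.960, with a 95% interval of 0.782 to 1.18. An exon of Gm42809 on the opposite strand overlaps exons of Il6ra, and whether the counting used strand is not given in the sources used here.

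Il15ra (ENSMUSG00000023206, protein-coding, chromosome 2, 11705290 to 11734317, plus strand) was the lowest of the 3 receptor genes per kilobase of exon. Its product binds interleukin-15 and presents it to neighbouring cells. It stood at 91.0, 90.0, 116 and 77.0 in Het 1 to 4 and at 179, 145, 59.6 and 58.9 in KO 1 to 4. The KO values again lay on both sides of the Het values. The log2 fold change was 0.08 ± 0.42 (limma adjusted p = 0.990). After TMM it was −0.14 ± 0.23 (adjusted p = 0.840). The TMM fold change was 0.908 with a 95% interval of 0.653 to 1.26, so a doubling lay outside that interval. Scaled by the TMM factors of abundant genes, Il15ra was at 90.0 to 108 in Het and 74.7 to 102 in KO (exact permutation p = 0.229, two-sided).

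Csf1 (ENSMUSG00000014599, protein-coding, chromosome 3, 107741048 to 107760469, minus strand) had the highest level per kilobase among the 7 ligand genes. It encodes the growth factor that macrophages need for survival. Its normalized count was 247, 348, 300 and 237 in Het 1 to 4 and 737, 617, 163 and 291 in KO 1 to 4. KO 1 and KO 2 were above all Het libraries, KO 3 was below them and KO 4 was among them. The means were 283 ± 51.0 in Het and 452 ± 270 in KO (SD, n = 4 each), and the log2 fold change of 0.45 ± 0.50 was the largest positive one of the 9 (limma adjusted p = 0.948). With TMM factors from abundant genes, Csf1 stood at 294, 348, 257 and 327 in Het and 402, 318, 280 and 430 in KO. The fold change was 1.16 with a 95% interval of 0.909 to 1.47 (limma adjusted p = 0.386), so neither direction passed the test.

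**Figure D2:**
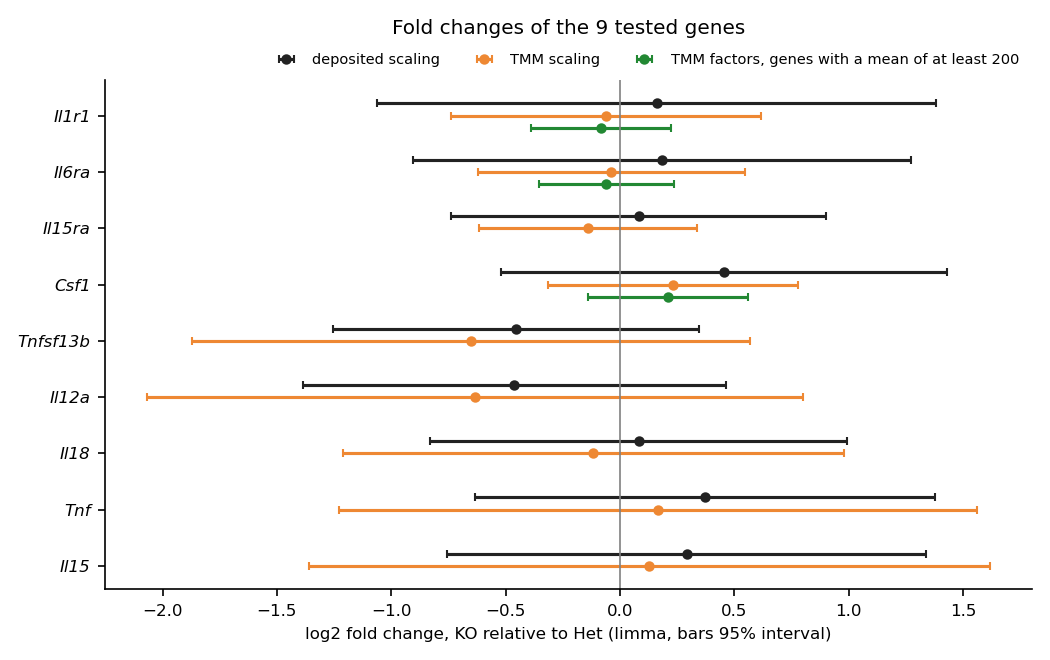
Log2 fold change of KO relative to Het (horizontal axis) for the 9 tested genes, as points with 95% intervals from limma, under the deposited scaling (black), TMM scaling (orange) and TMM factors from abundant genes (green, for the 3 genes above that mean). Every interval crosses 0, and the green intervals of Il1r1, Il6ra and Csf1 are the narrowest.

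The 6 interleukin and tumour necrosis factor ligands had few reads. Tnfsf13b (ENSMUSG00000031497, protein-coding, chromosome 8, 10006467 to 10039072, plus strand), the gene of BAFF, had the most reads of them, at 39.7, 35, 27.4 and 30.8 in Het 1 to 4 and 17.9, 9.06, 48.5 and 38.7 in KO 1 to 4. It was lowest in KO 2 and KO 1 and highest in KO 3, so its order in KO was opposite to that of Il1r1. Tnfsf13b had a log2 fold change of −0.46 ± 0.41 (limma adjusted p = 0.920). Il12a (ENSMUSG00000027776, protein-coding, chromosome 3, 68690644 to 68698547, plus strand), the gene of the p35 chain that interleukin-12 and interleukin-35 share, was at 24.3, 15.0, 12.9 and 14.6 in Het and 4.48, 6.47, 28.7 and 19.1 in KO. KO 1 and KO 2, with 5 reads each, were below all Het libraries and KO 3 above them. Its log2 fold change was −0.46 ± 0.47 (limma adjusted p = 0.938). Tnfsf13b and Il12a were both highest in KO 3, Het 1 and KO 4, which were among the libraries with the largest share of olfactory and vomeronasal reads. Both were lowest in KO 1 and KO 2, where that share was smallest. Whether the 2 are linked was not tested.

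Il18 (ENSMUSG00000039217, protein-coding, chromosome 9, 50554827 to 50581840, plus strand) encodes a relative of interleukin-1 that caspase-1 activates. Its values were 12.8, 13.8, 18.9 and 10.5 in Het 1 to 4 and 16.1, 11.6, 21 and 11.3 in KO 1 to 4, and no library stood apart. The log2 fold change was 0.08 ± 0.47 (limma adjusted p = 0.991), with a 95% interval of the fold from 0.562 to 1.99. Tnf (ENSMUSG00000024401, protein-coding, chromosome 17, 35199381 to 35202007, minus strand) encodes tumour necrosis factor. It was at 16.7, 10, 2.57 and 16.2 in Het and 21.5, 7.77, 11 and 13.1 in KO. The lowest Tnf value, in Het 3, rested on 3 reads, and the log2 fold change was 0.37 ± 0.51 (limma adjusted p = 0.959).

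Il15 (ENSMUSG00000031712, protein-coding, chromosome 8, 82331632 to 82403222, minus strand) encodes the cytokine that Il15ra presents. It was at 14.1, 6.25, 6.86 and 9.72 in Het 1 to 4 and 16.1, 2.59, 18.8 and 16.1 in KO 1 to 4. KO 1, KO 3 and KO 4 lay above all Het libraries and KO 2, with 2 reads, below all of them. For Il15 the log2 fold change was 0.29 ± 0.53 (limma adjusted p = 0.964), and its 95% interval as a fold, 0.592 to 2.53, includes a doubling. Il6 (ENSMUSG00000025746, protein-coding, chromosome 5, 30013114 to 30019981, plus strand) was too low for the test, with a mean of 8.42. Interleukin-6 is a main inducer of the acute phase response. Il6 had 2, 5, 6 and 17 reads in Het 1 to 4 and 4, 5, 16 and 20 in KO 1 to 4, or 2.56, 6.25, 5.14 and 13.8 against 3.59, 6.47, 17.6 and 11.9 normalized counts. The 4 libraries with the highest share of olfactory and vomeronasal reads, KO 3, KO 4, Het 4 and Het 1, included the 3 highest values of Il6 (KO 3, Het 4, KO 4) and also its lowest (Het 1). Its exact permutation p was 0.486 (two-sided). A count of 2 reads has a 95% exact Poisson interval of 0.242 to 7.22 reads, which covers counting error only.

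**Figure D3:**
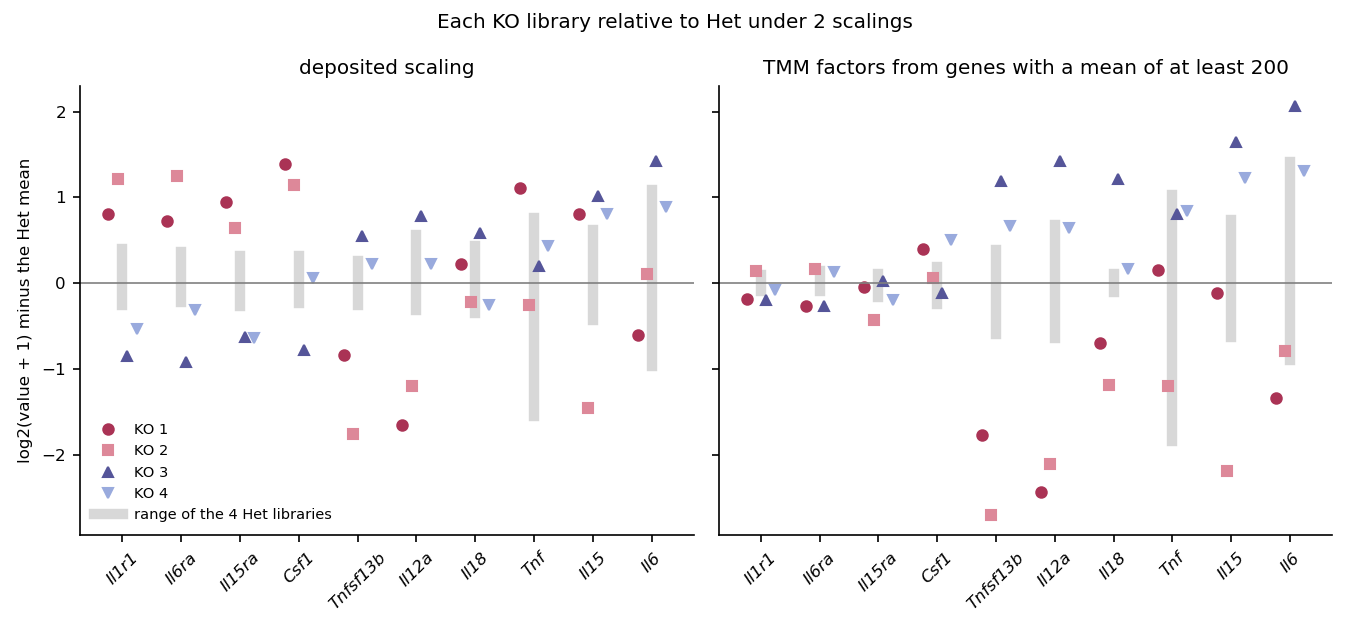
Log2(value + 1) of each KO library minus the mean of the 4 Het libraries (vertical axis) for the 10 genes, under the deposited scaling (left) and with TMM factors from abundant genes (right). Grey bars span the 4 Het libraries. On the left KO 1 and KO 2 lie above KO 3 and KO 4 in Il1r1, Il6ra, Il15ra and Csf1. On the right that gap closes for these 4 genes, and KO 1 and KO 2 lie below KO 3 and KO 4 in Tnfsf13b, Il12a, Il18, Tnf, Il15 and Il6.

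Within KO, 4 of the 10 genes were higher in KO 1 and KO 2 than in KO 3 and KO 4, 3 were lower and 3 were mixed. Under the deposited scaling KO 1 and KO 2 both exceeded KO 3 and KO 4 in Il1r1, Il6ra, Il15ra and Csf1, and the ratio of their means was 3.26, 3.02, 2.74 and 2.98. Of all tested genes, 56.9% showed this order. With TMM factors from abundant genes the 4 ratios were 1.09, 1.01, 0.911 and 1.01. Both were below KO 3 and KO 4 in Tnfsf13b, Il12a and Il6, with ratios of 0.309, 0.230 and 0.340, as in 29.8% of tested genes. With TMM factors from abundant genes these ratios were 0.103, 0.0747 and 0.11, and 59% of all tested genes then showed this lower order. Il15, Il18 and Tnf were mixed under the deposited scaling, with ratios of 0.538, 0.861 and 1.21. With TMM factors from abundant genes KO 1 and KO 2 were below in these 3 genes too, with ratios of 0.181, 0.281 and 0.411. The share of olfactory and vomeronasal reads and the level of Ddx3y moved with this split, and their part in it was not tested.

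Per kilobase of annotated exon, the 10 genes ranged from 485 normalized counts for Il1r1 to 3.47 for Il6, as means over the 8 libraries. Il6ra was at 105, Csf1 at 69.6, Il15ra at 23.0, Il18 at 14.1, Il12a at 9.22, Tnf at 7.54, Il15 at 5.0 and Tnfsf13b at 4.50. In Het, Tnfsf13b at 4.84 ± 0.77 and Il15 at 4.08 ± 1.58 did not differ beyond their spread (SD, n = 4), nor did Tnf at 6.93 ± 4.03 and Il12a at 9.82 ± 3.05. As a floor, 1268 olfactory and vomeronasal receptor genes together had 1.05 to 3.44 normalized counts per kilobase in the 8 libraries. Il1r1 had 66.7 to 912 times the reads per kilobase of these genes within the same library, Il6ra 13.8 to 202 times, Csf1 8.99 to 111 times and Il15ra 3.90 to 32.0 times. The multiples were 3.58 to 12.4 for Il18, 2.09 to 6.04 for Il12a, 0.925 to 10.4 for Tnf, 1.09 to 5.66 for Il15, 1.25 to 2.88 for Tnfsf13b and 0.445 to 2.53 for Il6. Il6 was at or under the receptor genes in Het 1, and Tnf in Het 3. Over all 8 libraries summed, the multiple was 3.43 for Tnf, 2.35 for Il15, 2.05 for Tnfsf13b and 1.64 for Il6. These genes were too low to judge a change in beta cell RNA. Il12a, at 4.12, had 5 reads in KO 1 and 5 in KO 2, so its fold change rests on few reads. Il18, at 6.23, had 9 to 22 reads per library, so its fold change rests on few reads too.

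**Figure D4:**
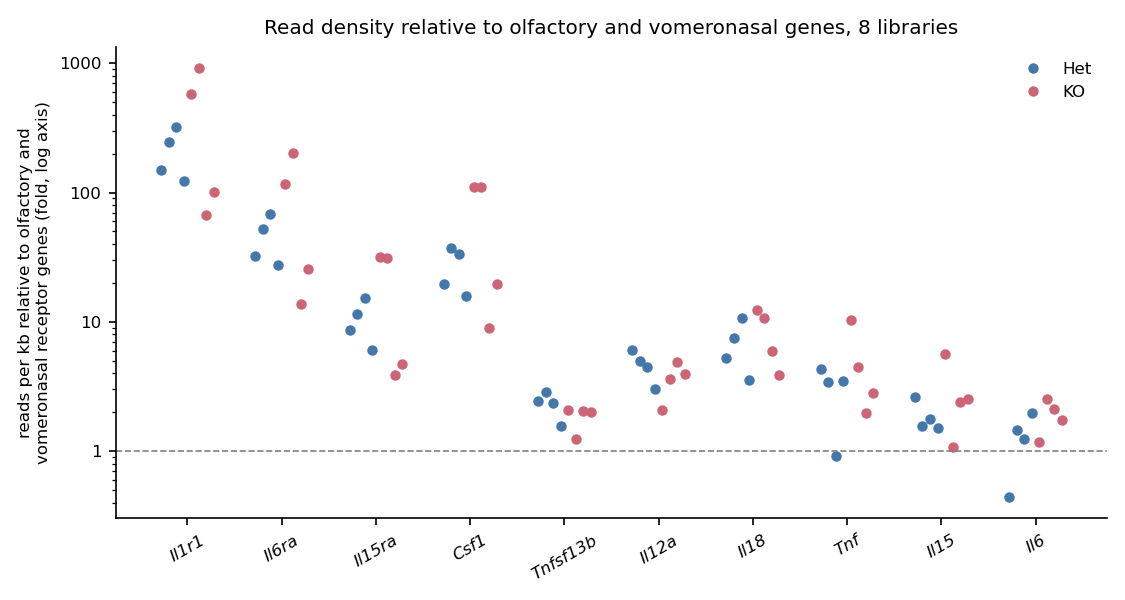
Reads per kilobase of annotated exon of each gene, divided by that of 1268 olfactory and vomeronasal receptor genes in the same library (vertical axis, log scale; dashed line at 1), for the 4 Het (blue) and 4 KO (red) libraries. Il1r1, Il6ra, Csf1 and Il15ra stay at 3.90 or above in every library, while Il6, Tnf and Il15 reach down to about the dashed line.

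The rest of the pathways was followed through 7 lists of 114 genes, of which 81 were tested. Among these, 1 was called higher and 0 lower, and 4 higher and 3 lower genes had an unadjusted p under 0.05. The median log2 fold change was −0.03, beside 0.05 over all tested genes. With TMM scaling 0 of the 81 were called, beside 0.674% of all tested genes. Of the 81 genes, 38 had a positive and 43 a negative log2 fold change. Under the deposited scaling every KO library was above every Het library in 4 of them (Gdf15, Il18bp, Flt3l and Irak4), and below in 0. Among all tested genes these shares were 2.19% and 0.893%. Flt3l and Irak4 are named after their values were seen, and both missed the threshold (limma adjusted p = 0.263 and 0.948). With TMM scaling the groups of Irak4 overlapped, while KO lay wholly above Het in Myd88 and wholly below it in Csf1r. Among all tested genes these shares were then 3.67% and 1.7%. Myd88 too is named after its values were seen, and it missed the threshold with TMM scaling (limma adjusted p = 0.559).

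The called gene was Gdf15, a stress-induced cytokine of the transforming growth factor family. It was at 5.12, 15.0, 18.0 and 12.2 in Het 1 to 4 and 67.2, 38.8, 32.0 and 53.0 in KO 1 to 4, so each KO library was above each Het library. The log2 fold change was 1.91 ± 0.42 (limma adjusted p = 0.00106). It was 1.70 ± 0.47 with TMM scaling, where the call was lost (adjusted p = 0.164), as it was with edgeR (adjusted p = 0.136) and without Het 1 (limma adjusted p = 0.108). DESeq2 called it (adjusted p = 0.00644). Gdf15 belongs to a list of 25 other cytokines, of which 10 were tested. Mif, with the highest mean of these, had a log2 fold change of 0.14 ± 0.44 (limma adjusted p = 0.981).

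In the interleukin-1 and interleukin-18 family, 20 of 21 listed genes were tested, and 0 were called (unadjusted p under 0.05 in 1 higher and 0 lower; median log2 fold change 0.12). Il18bp encodes a secreted protein that binds and blocks interleukin-18. It was at 102, 109, 102 and 85.9 in Het 1 to 4 and 728, 215, 165 and 214 in KO 1 to 4. The KO values were all above the Het values, with KO 1 far above the rest. The log2 fold change was 1.45 ± 0.45 and missed the threshold (limma adjusted p = 0.109, or 0.0732 after TMM; exact permutation p = 0.0286, two-sided, the smallest possible). It passed with edgeR (adjusted p = 0.0376), DESeq2 (0.0216) and limma on abundant genes alone with their TMM factors (0.0433). Quantile scaling also passed it (limma adjusted p = 0.0498). Without KO 1 its log2 fold change was 0.98 (limma adjusted p = 0.9998). It passed without KO 3 (0.0102) or KO 4 (0.0398), but not without KO 2 (0.0665) or any single Het library. With KO 3 and KO 4 alone as KO the log2 fold change was 0.91 (limma adjusted p = 0.0303), where 1.22% of genes were called higher. The other ligands were scarce, with means over 8 libraries of 13.9 for Il1a, 19.4 for Il1b and 29.1 for the receptor antagonist Il1rn. The decoy receptor Il1r2 had a mean of 30.3 and Il18r1, the receptor of interleukin-18, of 29.1, and their log2 fold changes were 0.10 ± 0.41 and −0.08 ± 0.41. Casp1, the gene of the protease that activates interleukin-18, was under the filter at a mean of 9.49. Il1rap, the co-receptor of Il1r1, had a log2 fold change of 0.41 ± 0.45 (limma adjusted p = 0.948), and Irak1, with the highest mean of the list, −0.19 ± 0.58 (adjusted p = 0.981). With abundant genes alone and their TMM factors, Irak1 was called lower, at −0.43 (limma adjusted p = 0.0410).

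In the interleukin-6 family 14 of 17 genes were tested and 0 were called (0 at an unadjusted p under 0.05). The signalling chain Il6st went from a mean of 1513 to 2449, with a log2 fold change of 0.36 ± 0.60 (limma adjusted p = 0.962). Stat3, the transcription factor under that chain, had −0.08 ± 0.63 (adjusted p = 0.995). Adam17, a protease that sheds Tnf and Il6ra from the cell surface, had 0.28 ± 0.47 (adjusted p = 0.962).

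In the interleukin-15 axis 6 of 8 genes were tested and 0 were called (0 at an unadjusted p under 0.05). The receptor chains Il2rb and Il2rg, by which lymphocytes answer interleukin-15, had means of 16.7 and 5.87, the latter under the filter. Jak1 had a log2 fold change of 0.04 ± 0.61 (limma adjusted p = 0.997). All 9 genes of the interleukin-12 family list were tested, with 0 called (unadjusted p under 0.05 in 0 higher and 1 lower). The partner chains of Il12a had means of 11.4 (Il12b) and 13.2 (Ebi3), beside 15.7 for Il12a itself. Il23a, the highest of that list, had a mean of 26.2 and a log2 fold change of −0.03 ± 0.41, and Il27 a mean of 10.4.

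Growth factors and their receptors had 11 of 15 genes tested and 0 called (unadjusted p under 0.05 in 1 higher and 2 lower). Csf1r, the receptor of the Csf1 product and a marker of macrophages, was at 101 ± 22.4 in Het and 73.8 ± 16.5 in KO, a log2 fold change of −0.44 ± 0.41 (limma adjusted p = 0.930). With TMM scaling the log2 fold change of Csf1r was −0.66 ± 0.24, which also missed the threshold (limma adjusted p = 0.404). Every KO library was then below every Het library (exact permutation p = 0.0286, two-sided), as in 1.7% of all tested genes. Il34, the other ligand of that receptor, had a mean of 11.9. Csf2ra, a receptor chain for another macrophage growth factor and the gene with the highest mean of that list, stood at a log2 fold of 0.32 ± 0.46, which missed the threshold (limma adjusted p = 0.961). Its partner chain Csf2rb, named after its values were seen, had −1.14 ± 0.44 (limma adjusted p = 0.388) and was called lower by edgeR (−1.60, adjusted p = 0.0446) but not by DESeq2 (adjusted p = 0.302). The tumour necrosis factor and BAFF systems had 11 of 19 genes tested and 0 called (unadjusted p under 0.05 in 1 higher and 0 lower; median 0.27). Tnfrsf1a, the main receptor of tumour necrosis factor, was at 393 ± 123 in Het and 488 ± 334 in KO, a log2 fold change of 0.07 ± 0.51 (limma adjusted p = 0.994). The second receptor, Tnfrsf1b, was at 49.7 in Het and 46.1 in KO. Of the BAFF receptors, Tnfrsf13b had a mean of 15.4 and Tnfrsf13c of 5.36, and Tnfsf13, the closest relative of Tnfsf13b, had a mean of 3.51. Birc3, an NF-kappaB target that restrains cell death and the gene with the highest mean there, had a log2 fold change of 0.27 ± 0.56 (adjusted p = 0.968).

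**Figure D5:**
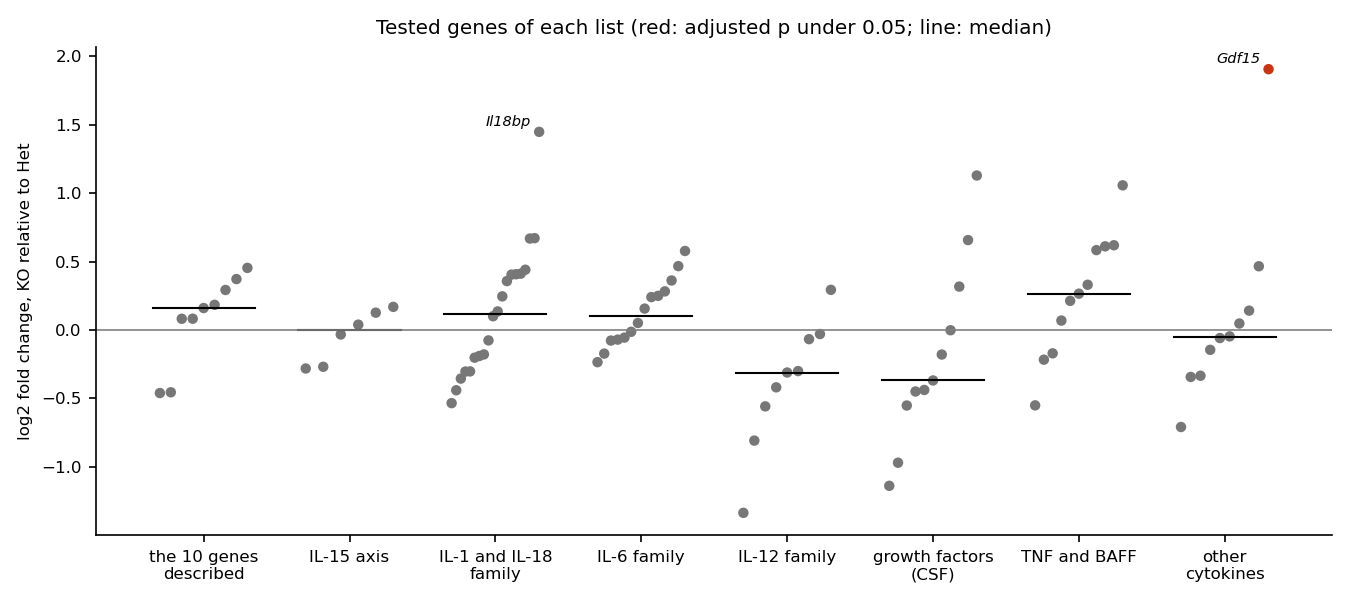
Log2 fold change of KO relative to Het (vertical axis) for the tested genes of the 10 described here and of the 7 further lists, sorted within each list, with the list median as a black line. Gdf15, in red, is the 1 gene with an adjusted p under 0.05 under the deposited scaling, and Il18bp, in grey, has the next largest rise but missed that threshold.

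Over the 8 libraries, after TMM scaling, the genes most like Il1r1 were Dpp8, Casc4 and Taok3, with Pearson r of 0.995, 0.995 and 0.993. For Il6ra they were Syt14, Jmjd1c and Map2 (r of 0.988, 0.985 and 0.984), for Csf1 they were Upf3b, Dmac2 and Cep162 (0.983, 0.977 and 0.976), and for Il15ra they were Hgsnat, Tinf2 and Gmeb1 (0.971, 0.967 and 0.964). Among the 4 genes themselves Il1r1 and Il6ra were most alike, with r of 0.963, and Il15ra and Csf1 least, with r of 0.506. These are descriptions over 8 libraries that share their depth and their level of expressed genes, chosen from the 10529 genes whose mean reached 50.

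The 10 beta cell markers listed summed to 93285 to 117740 reads per M reads in Het and 36778 to 107140 in KO. Markers of leukocytes, which make many of these cytokines, were scarce in both groups. Summed over the 5 general leukocyte markers they took 5.77 to 16.1 reads per M reads in Het and 2.16 to 21 in KO, and Ptprc, which encodes CD45, had 1.18 times the reads per kilobase of the olfactory and vomeronasal genes. The 11 macrophage markers summed to 43.3 to 67.0 in Het and 17.2 to 44.7 in KO, the T and natural killer cell markers to 10.3 to 26.4 and 2.62 to 30.5, the B cell markers to 9.28 to 19.5 and 3.47 to 26.4, and the dendritic cell markers to 15.3 to 28.7 and 4.86 to 33.3. None of these markers was at 0 reads in all libraries. Of the macrophage markers C1qa was called lower, from 227 ± 43.8 to 86.9 ± 83.1 (log2 fold change −1.79 ± 0.43, limma adjusted p = 0.00513). C1qa was also called with TMM scaling (−2.01 ± 0.32, limma adjusted p = 0.00342), but not by DESeq2 (adjusted p = 0.292). Its partners C1qb and C1qc had means of 3.97 and 6.93 and were not tested. In Het, C1qa alone took a large part of the macrophage sum, so that sum does not describe the 11 markers evenly. Whether leukocytes contribute to the reads of the 6 scarce ligand genes was not tested. In bulk samples fewer cells of a type and less RNA per cell cannot be told apart.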

How the data were processed

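RNA of FACS-sorted beta cells was sequenced from total RNA with a stranded low-input kit (Takara SMARTer, v3 Pico), per the labels' protocols. Per the submitters' processing notes, the tools included STAR 2.7.3a, HTSeq, UMI-tools, DESeq2 1.28.1 and FastQC 0.11.8, with the build mm10. The annotation and the strand setting of the counting are not given in the sources used here. The authors deposited normalized counts, a signal that equals each gene's reads divided by 1 size factor per library. Dividing by the value of 1 read (0.595 to 1.29) gave whole reads for 100% of values within a tolerance of 0.001.

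The 10 genes and all gene lists were chosen with earlier results of these data known. Genotype was tested with limma 3.58.1 in R 4.3.3, with trend and robust options, on log2(value + 1) of genes whose mean reached 10, and p-values adjusted by Benjamini-Hochberg over all tested genes. The median total degrees of freedom of limma were 128988, and 17.3 with TMM scaling, so its SE and p lean on a spread pooled over genes. On the log2(value + 1) scale fold changes of low genes are understated. An exact permutation test was run per gene. On the recovered reads edgeR 4.0.16 called 165 genes and DESeq2 1.42.0 called 214. Other scalings, filters, pseudocounts, array weights, a replicate block, and fits without single libraries or with KO 1 and KO 2 or KO 3 and KO 4 alone were tried as alternatives. The scripts were tested on simulated data. Gene positions come from GENCODE M21 (mm10), with 42961 symbols matched. Partner genes of the 7 lists are named where called, where most abundant in their list, or where they are direct partners of the 10 genes. Genes like a given gene are the 3 with the highest Pearson r among genes whose mean reached 50.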

Additional observations from a re-analysis of the deposited data

Results flagged for a closer look

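Il15 in KO 2 stood apart from the other KO libraries, at 2.59 normalized counts (2 reads) beside 16.1, 18.8 and 16.1 in KO 1, KO 3 and KO 4. The gap to the nearest library was 0.834 of the whole KO range, above Dixon's 95% critical value for 4 samples. It was 1 of 20 sets of 4 values examined in this way, and chance marks about 1 in 20. Without KO 2 the log2 fold change of Il15 was 0.87 (limma adjusted p = 0.9999), the highest of the fits without 1 library, which ran from 0.053. With KO 3 and KO 4 alone as KO it was 0.91 (limma adjusted p = 0.236), or 1.12 with TMM scaling (limma adjusted p = 0.160).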

How the results depend on the processing

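Over 9 tested genes and their alternatives, 212 values were computed: 162 kept direction and side of the threshold, 9 kept direction and now passed it, and 41 reversed sign. The 8 fits without 1 library called 0 of the 10 genes, with a lowest adjusted p of 0.337 (limma). Alternatives that combined TMM scaling with a block or with a pair of KO libraries were added after seeing the data. The array weights did not converge fully. Depth limits the 6 scarce ligands, whose libraries held 2 to 65 reads each.

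Fitted with KO 1 and KO 2 alone, limma called 4 of the genes higher (Csf1, Il15ra, Il1r1 and Il6ra; 47.4% of all genes were called higher) and 2 lower (Il12a and Tnfsf13b; 15.4%). With TMM scaling 1 was called higher (Csf1; 18.1%) and the same 2 lower (26.9%). With KO 3 and KO 4 alone, log2 fold changes reversed to −0.36 for Csf1, 0.50 for Il12a, −0.63 for Il15ra, −0.69 for Il1r1, −0.62 for Il6ra and 0.39 for Tnfsf13b. With TMM scaling these were −0.13, 0.72, −0.41, −0.46, −0.39 and 0.61, and KO 1 and KO 2 alone gave −0.63 for Il18 and −0.20 for Tnf.

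TMM scaling reversed Il15ra (−0.14), Il18 (−0.12), Il1r1 (−0.061) and Il6ra (−0.037). Keeping only genes with a mean of at least 200, with TMM factors from them, gave −0.083 for Il1r1 and −0.060 for Il6ra, and quantile scaling gave −0.29 for Il15ra and −0.056 for Il6ra. Array weights gave −0.14 for Il15ra, −0.080 for Il1r1 and −0.023 for Il6ra, and edgeR gave −0.13 for Il15ra, −0.049 for Il18 and −0.024 for Il1r1. Without 1 library the log2 fold change ran from −0.21 to 0.32 for Il15ra, −0.084 to 0.23 for Il18, −0.19 to 0.50 for Il1r1, −0.17 to 0.55 for Il6ra and −0.14 to 0.62 for Tnf. The cause was not tested.

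Over all genes, 198 higher became 404 when only the 6697 genes whose mean reached 200 were tested, with their own TMM factors, 320 with quantile scaling, 127 without trend or robust options, 9809 with KO 1 and KO 2 alone, and 3740 and 536 with TMM scaling and KO 1 and KO 2 or KO 3 and KO 4 alone. The 5 lower became 284, 138, 1, 3182, 5577 and 1141 in these settings, 2 with a mean of at least 50, 8 with TMM scaling, 18 with array weights, 8 with edgeR, 3 with DESeq2 and 1587 with KO 3 and KO 4 alone. Without 1 library the counts were 105 to 338 higher (105 without KO 1, 129 without Het 1, 338 without KO 3) and 1 to 46 lower (1 without Het 1, 2 without Het 2, 3 without Het 3 or Het 4, 18 without KO 2, 46 without KO 3, 34 without KO 4).

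In the 7 lists, 1 higher became 0 with a mean of at least 50 (which leaves Gdf15 out) or with TMM scaling, and 2 with quantile scaling, DESeq2, KO 3 and KO 4 alone, or TMM scaling with KO 3 and KO 4. It became 31 with KO 1 and KO 2 alone, 13 with TMM scaling added, and 0 to 2 without 1 library (0 without Het 1, 2 without KO 3 or KO 4). The 0 lower became 1 with only the genes whose mean reached 200 and their TMM factors, array weights, edgeR, or TMM scaling and block. It became 12 with KO 1 and KO 2 alone, 8 with KO 3 and KO 4 alone, and 23 and 4 with TMM scaling added.

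Samples of the same replicate number did not deviate together in every pair (r of −0.28, 0.27, −0.55 and 0.63), and only number 4 correlated best with its own number, so the numbers do not pair the samples. With the replicate block 182 genes were called higher and 5 lower, and with TMM scaling and the block 307 and 96, where log2 fold changes were −0.14 for Il15ra, −0.12 for Il18, −0.061 for Il1r1 and −0.037 for Il6ra. Neither block fit called any of the 9 genes.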
